A study of Mus musculus with 18 samples.

Results

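Cell cycle and DNA replication genes were followed by name: of 38 genes on the list, 37 had a probe set under their symbol in the platform annotation, and no probe set carried the symbol Ccnb1, the gene of cyclin B1. The 37 genes had 90 probe sets, of which 81 were bright enough to be tested, and each gene was given by its brightest probe set. All 37 of these were tested, among 12527 genes tested in all, and 36 of them were at or above the array's median signal on all 18 arrays. The exception was Tyms. By known function, 14 members belong to DNA replication and the G1/S transition and 23 to G2 and mitosis.

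The cells were macrophages grown from marrow of IL-10-/- mice, which cannot make the cytokine IL-10 themselves, and this genotype was shared by all groups. Marrow was cultured for 7 days in DMEM with 10% fetal bovine serum and CSF-1, the macrophage growth factor, supplied as conditioned medium of L cells, by which point more than 95% of the viable cells were mature macrophages according to the labels. The cells were then scraped, replated and treated in medium without CSF-1. The 6 groups received LPS at 100 ng/ml alone for 10, 20 or 30 min, or LPS at 100 ng/ml plus IL-10 at 10 ng/ml for the same times, and each group had 3 Affymetrix arrays. The 3 replicate numbers were independent experiments run in sequence with mice matched for age and sex, and they are called experiments 1, 2 and 3. Each experiment therefore held 6 arrays, 1 per group, from cells that shared their mice and culture. The p-values for differences between experiments rest on the spread between arrays of an experiment and say nothing of what made the experiments differ. Treatments and times were first compared without the experiment in the fit, so those p-values rest on the spread between experiments as well. Untreated cells were not analysed here.

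A dividing cell passes through G1, copies its DNA in S phase, and separates the copies in G2 and mitosis. E2F transcription factors switch on replication genes at the G1/S transition, among them the MCM helicase that opens the DNA, the PCNA clamp that holds the polymerase, and the enzymes that make deoxynucleotides. Mitotic genes come on later in the cycle, under factors that act through the CHR element and the CCAAT box of their promoters, and bone marrow macrophages keep dividing in culture as long as CSF-1 is supplied.

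Signals are in the arbitrary units of the deposited table, in which every array had a trimmed mean between 500.003 and 500.004, and differences are on the scale of log2(signal + 16). The array median signal was 75.6 to 82.3 in experiment 1, 77.1 to 120.9 in experiment 2 and 79.2 to 110.8 in experiment 3. At 20 min of LPS alone, the arrays of experiments 2 and 3 had the highest lower quartiles of signal, 38.6 and 34.0. These are the 2 arrays said below to have stood apart. The LPS plus IL-10 array at 20 min of experiment 3 came next at 31.0, followed by 27.9, and it was not left out together with them. The 3' to 5' signal ratio of Gapdh, a measure of RNA integrity, was 0.762 to 0.855, 0.792 to 1.02 and 0.775 to 0.906 in experiments 1, 2 and 3. Of macrophage markers 9 were tested, and all 9 were at or above the array median on all 18 arrays. The same was true of 8 of 9 granulocyte, 5 of 8 stromal and 4 of 10 myeloid progenitor markers with a probe set. It was true of 0 lymphocyte, erythroid and dendritic cell markers. This level therefore does not tell macrophages from granulocytes, stromal cells or progenitors. Because each array is scaled to the same mean, a change in total RNA per cell would not be visible, and in a bulk sample fewer dividing cells and less of these transcripts per cell cannot be told apart.

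The 3 experiments differed widely in these genes, and they differed in more than 1 way. Experiment 1 was high in both replication and mitosis genes, experiment 2 was low in mitosis genes, and experiment 3 was low in replication genes but had mitosis genes close to the level of experiment 1. The mean of log2(signal + 16) over the 14 replication and G1/S members was 11.53 ± 0.04 in experiment 1, 10.88 ± 0.05 in experiment 2 and 10.56 ± 0.06 in experiment 3 (mean ± SD, n = 6 arrays). Over the 23 mitosis members it was 11.46 ± 0.02, 10.07 ± 0.06 and 11.35 ± 0.08 in the same order. The difference of the 2 means, mitosis minus replication, lay between -0.13 and -0.046 on the 6 arrays of experiment 1, between -0.89 and -0.74 in experiment 2, and between 0.67 and 0.84 in experiment 3. The ranges did not overlap, so on these arrays this single difference placed each of the 18 in its experiment. Such separation was not particular to these genes. Over all tested probe sets, in deviations from the group means, each of the 18 arrays correlated best with an array of its own experiment.

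**Figure D1:**
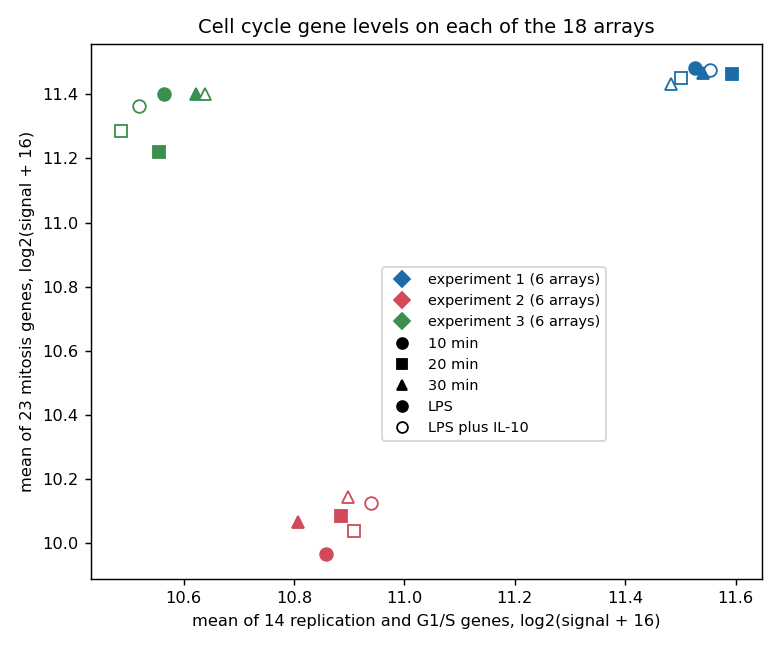
Each point is 1 of the 18 arrays, with the mean of log2(signal + 16) over the 14 replication and G1/S genes on the horizontal axis and over the 23 mitosis genes on the vertical axis. Colour gives the experiment, shape the time, and filling the treatment (filled for LPS, open for LPS plus IL-10); the arrays form 3 separate clouds by experiment, at 11.53 and 11.46, 10.88 and 10.07, and 10.56 and 11.35.

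Between experiments 2 and 1, no member was called higher and 35 of 37 were called lower (limma, adjusted p below 0.05 over all probe sets), with a median difference of -1.17. Over all tested genes, 23.9% were called higher and 14.8% lower, with a median of 0.12. The 2 members not called were Pcna (-0.13, SE 0.09) and E2f1 (-0.24, SE 0.12). In 34 of 37 members all 6 arrays of experiment 2 were below all 6 of experiment 1, an arrangement seen in 10.1% of all tested genes.

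Between experiments 3 and 1 the members divided by function. All 14 replication and G1/S members were called lower, with a median of -0.95. Of the 23 mitosis members 4 were called higher, 9 lower and 10 in neither direction, with a median of -0.017. In total this made 4 members higher and 23 lower, against 26.9% higher and 20.3% lower of all tested genes and a median of 0.10. The 4 higher members were Cdc20 (0.55), Ccnb2 (0.45), Hmmr (0.32) and Plk1 (0.32), all active in G2 and mitosis. For Cdc20 and Hmmr these are the values of the brightest probe set, and no other tested probe set of either gene was called higher; Ccnb2 and Plk1 have 1 probe set each. Plk1 was no longer called when the arrays at 30 min were left out (0.23, adjusted p = 0.113). Among the 9 lower mitosis members, no other tested probe set of Tpx2, Bub1 or Cenpe was called lower.

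Between experiments 3 and 2 all 23 mitosis members were called higher, with a median of 1.13, while 9 of the 14 replication and G1/S members were called lower and 2 higher, with a median of -0.32. Over all tested genes 12.9% were called higher and 15.6% lower, with a median of -0.015. The 2 replication members called higher by their brightest probe sets were Rrm1 and Rrm2, both subunits of ribonucleotide reductase. Mcm5, Tyms and Ccne1 were called in neither direction by their brightest probe set. The count of 9 lower members fell to 5 when the arrays at 10 min were left out, and E2f1, Chek1, Mcm7 and Pcna then passed no threshold. In all 23 mitosis members the 6 arrays of experiment 3 lay above the 6 of experiment 2, against 7.19% of all tested genes.

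**Figure D2:**
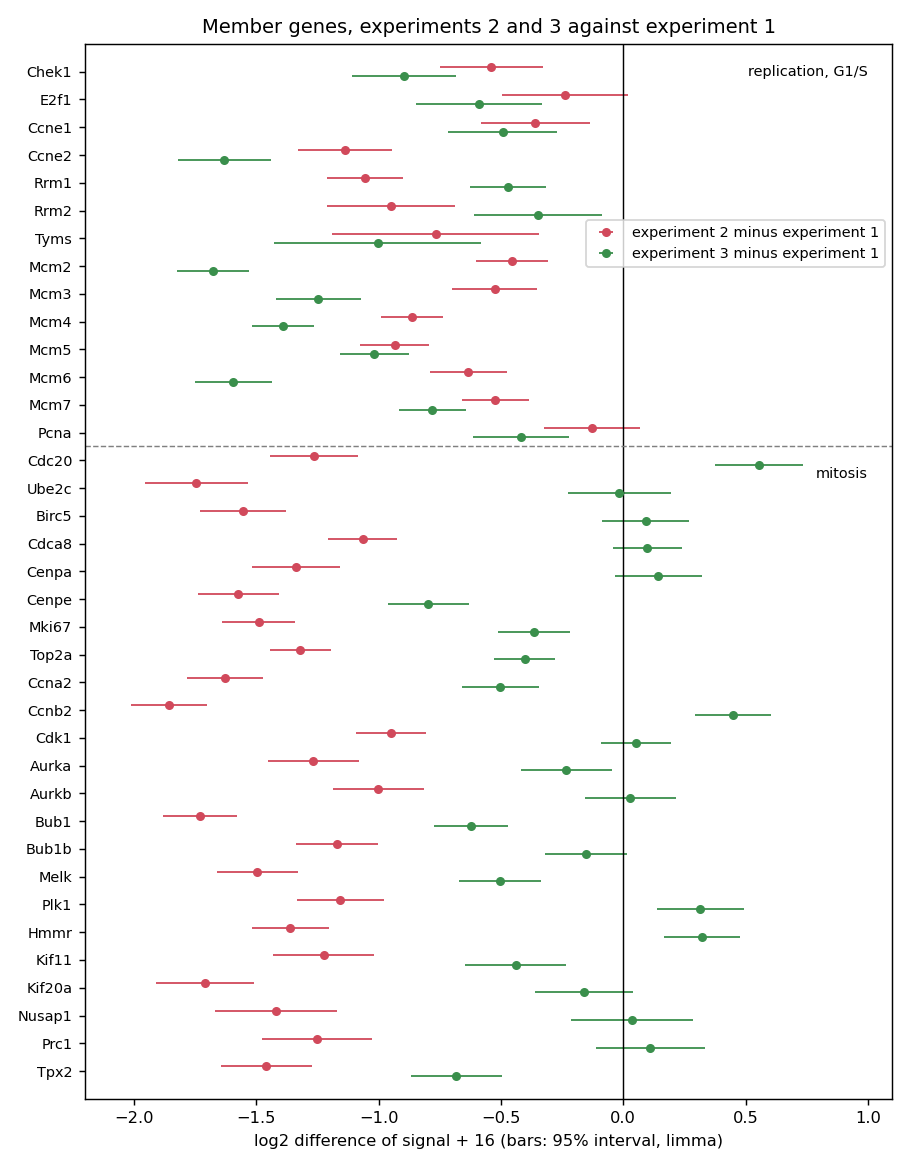
Each row is 1 of the 37 member genes; points give the log2 difference of signal + 16 of experiment 2 (red) and experiment 3 (green) from experiment 1, and bars the 95% interval from limma. The red points are below 0 in all 37 genes, while the green points are below 0 in all 14 replication and G1/S genes above the dashed line and lie on both sides of 0, from -0.80 to 0.55, among the 23 mitosis genes.

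The ranking of the 3 experiments followed function closely. In 12 members the mean was highest in experiment 1 and lowest in experiment 3, and all 12 were replication and G1/S genes. In 14 members it was highest in experiment 1 and lowest in experiment 2, among them 12 mitosis genes together with Rrm1 and Rrm2. In 11 members experiment 3 was highest and experiment 2 lowest, and all 11 were mitosis genes.

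Among the cyclins, the regulatory subunits of cyclin-dependent kinases, the mitotic cyclin gene Ccnb2 (probe set 1450920_at) had the widest spread of all members. Its signal was 3154 to 3803 (median 3608) in experiment 1, 861 to 1154 (median 943) in experiment 2 and 3712 to 5438 (median 5214) in experiment 3. All arrays of experiment 2 were far below the rest, and experiments 1 and 3 overlapped through a single LPS array at 20 min of experiment 3. The difference was -1.86 (SE 0.07, adjusted p = 6.10e-12) for experiment 2 against 1 and 2.31 (SE 0.07, adjusted p = 5.82e-13) for experiment 3 against 2. The cyclin E genes instead had their lowest means in experiment 3. By its brightest probe set, Ccne1 was not called there against experiment 2 (-0.13, adjusted p = 0.408). Ccne2, a partner of CDK2 at the G1/S transition, had signals of 1399.6 to 1945 (median 1588), 636 to 823 (median 728) and 405 to 689 (median 494) in experiments 1, 2 and 3, with experiment 1 above all arrays of the others and experiments 2 and 3 overlapping. Its differences were -1.14, -1.63 and, between experiments 3 and 2, -0.49 (SE 0.09, adjusted p = 5.26e-04).

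Ccne1, the other cyclin E gene, varied least among the cyclins, at 744 to 913 (median 784), 522 to 727 (median 618) and 476 to 658 (median 565), with differences from experiment 1 of -0.36 and -0.49. The call for experiment 2 against 1 (adjusted p = 0.0131) was lost without the arrays at 10 min (adjusted p = 0.0549) or at 30 min (adjusted p = 0.223). Ccna2, whose cyclin acts in both S phase and mitosis, was -1.63 in experiment 2 and -0.50 in experiment 3 relative to experiment 1, so it was lower in both and lowest in experiment 2. Cdk1, the kinase that drives entry into mitosis, had median signals of 5199.8, 2679.7 and 5618 and did not differ detectably between experiments 3 and 1 (0.053, SE 0.07, adjusted p = 0.558).

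The G1/S regulators E2f1 and Chek1 were lowest in experiment 3. Chek1, the kinase of the replication checkpoint, had signals of 534 to 722 (median 629), 389 to 519 (median 405) and 302 to 346 (median 329) in experiments 1, 2 and 3. The 3 ranges did not overlap, and the differences from experiment 1 were -0.54 and -0.90 (SE 0.10). Its call as lower in experiment 3 than in 2 (-0.36, adjusted p = 0.0139) was lost when any 1 time point was left out. The adjusted p was then 0.0675 without 10 min, 0.0599 without 20 min and 0.0670 without 30 min. E2f1, an activator of replication genes, had overlapping ranges of 882 to 1164 (median 1120.0), 776 to 1162 (median 900.0) and 569 to 923 (median 714). Its difference was -0.59 (SE 0.12, adjusted p = 7.01e-04) for experiment 3 against 1, and the call against experiment 2 (-0.35, adjusted p = 0.0433) was lost under 7 other settings, among them quantile normalisation and leaving out the arrays at 10 min.

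By brightest probe sets, all 6 genes of the MCM2-7 helicase were called lower in experiments 2 and 3 than in experiment 1. By the same probe sets, 5 of the 6 were called lower in experiment 3 than in 2. Mcm2 (probe set 1448777_at) varied most, at 2346 to 2439 (median 2386) in experiment 1, 1574 to 1886 (median 1744) in experiment 2 and 642 to 812 (median 739.5) in experiment 3. No array of an experiment reached the range of another, and within experiment 1 the 6 values were within 100 units of each other. The differences from experiment 1 were -0.45 (SE 0.07, adjusted p = 6.00e-05) and -1.68 (SE 0.07, adjusted p = 5.28e-12). Mcm6 followed the same steps, at 8484 to 10221 (median 8968), 5336 to 6361 (median 5952) and 2548 to 3423 (median 3015), again without overlap. The differences of experiment 3 from experiment 1 were -1.25 for Mcm3, -1.39 for Mcm4, -1.02 for Mcm5 and -0.78 for Mcm7. Another probe set of Mcm2 gave -0.047 in experiment 2 against 1, not called (adjusted p = 0.763), and -1.09 in experiment 3 against 1 (adjusted p = 2.14e-07). In experiment 2 against 1, another probe set each of Mcm3 (0.49, adjusted p = 0.0585) and Mcm4 (-0.33, adjusted p = 0.0516) was not called either. All remaining tested probe sets of the helicase genes were called lower in that comparison.

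Mcm5 differed from its partners between experiments 3 and 2, where its brightest probe set gave -0.083 (SE 0.07, adjusted p = 0.413), while another probe set of the gene gave -0.33 (adjusted p = 0.0123). Pcna, the sliding clamp, had the smallest spread of the members, with signals of 24909 to 32369 (median 28789.8), 20579.7 to 31487 (median 26329.9) and 18780.0 to 24160.2 (median 21412). Experiments 1 and 2 overlapped almost fully, and only experiment 3 was below all arrays of experiment 1 (-0.42, SE 0.09, adjusted p = 0.00131). Without the arrays at 20 min the difference of experiment 2 from 1 was 0.020 in place of -0.13.

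Of the enzymes of nucleotide synthesis, the ribonucleotide reductase genes behaved like each other and unlike the helicase by their brightest probe sets. Rrm1, the large subunit, had signals of 4648 to 5309 (median 5181), 2270.1 to 2596 (median 2469.9) and 3100.2 to 4243 (median 3588), with the 6 arrays of experiment 3 lying between the other experiments without overlap. Its difference was -1.06 (SE 0.07) for experiment 2 against 1 and 0.58 (SE 0.07, adjusted p = 9.25e-06) for experiment 3 against 2. Rrm2, the small subunit whose supply ties the enzyme to S phase, was 6376 to 7956 (median 6916), 3332 to 3776 (median 3694) and 4562 to 9121 (median 4808). Its highest value came from the LPS array of experiment 3 at 20 min, 1 of the 2 arrays that stood apart. The next highest of that experiment was 6063, on the LPS plus IL-10 array at 20 min. The call of this probe set of Rrm2 as lower in experiment 3 than in 1 (-0.35, adjusted p = 0.0298) was lost without the arrays at 10 min (adjusted p = 0.227), at 30 min (adjusted p = 0.383) or without the intensity trend in the model (adjusted p = 0.0718). Its other probe sets gave larger drops, -0.95 (adjusted p = 3.99e-05) and -1.02 (adjusted p = 2.77e-05). Between experiments 3 and 2 they gave 0.52 (adjusted p = 0.0135) and 0.17 (adjusted p = 0.485). For Rrm1, another probe set gave 0.40 between these experiments (adjusted p = 0.0826). Tyms, thymidylate synthase, was dim throughout at 128 to 234 (median 181), 73.2 to 137 (median 94.8) and 61.7 to 109 (median 83.6), and was lower than in experiment 1 by a fitted -0.77 (adjusted p = 0.00618) and -1.004 (adjusted p = 5.38e-04). The first of these calls was lost without the arrays at 10 min (adjusted p = 0.120). The other tested probe set of Tyms was called in neither comparison, at -0.34 (adjusted p = 0.320) and -0.030 (adjusted p = 0.935).

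**Figure D3:**
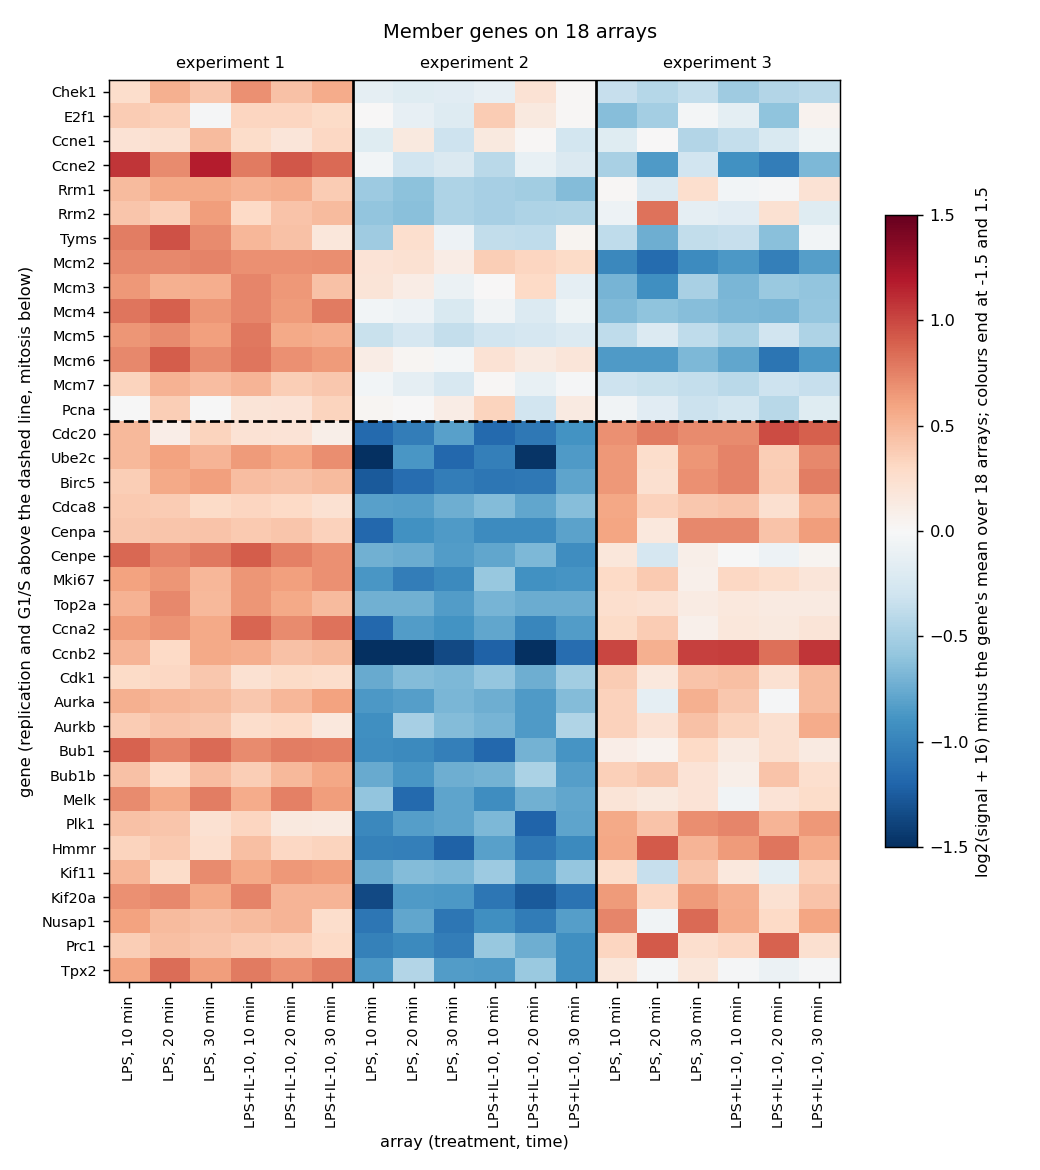
Rows are the 37 member genes and columns the 18 arrays, ordered by experiment, then treatment and time; colour gives log2(signal + 16) minus the gene's mean over the 18 arrays, with the scale ending at -1.5 and 1.5. Mitosis genes below the dashed line are blue across all 6 columns of experiment 2, and replication genes above it are bluest in experiment 3, with Rrm2 red on the LPS array at 20 min of that experiment.

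All 6 genes of mitotic kinases and the spindle checkpoint were called lower in experiment 2 than in experiment 1 and higher in experiment 3 than in 2. Bub1, a checkpoint kinase at the kinetochore, varied most, at 2929 to 3310.2 (median 3036), 784 to 1089 (median 925) and 1859 to 2209 (median 1964). The ranges were separate, with a difference of -1.73 (SE 0.07, adjusted p = 1.18e-11) in experiment 2 and -0.62 (SE 0.07, adjusted p = 1.77e-06) in experiment 3. Another probe set of Bub1 gave -0.67 in experiment 2 and 0.31 in experiment 3, the second not called (adjusted p = 0.0989). Aurkb, the kinase of the chromosomal passenger complex, varied least, at 1269.5 to 1536 (median 1441), 593 to 823 (median 705) and 1319 to 1672 (median 1436). Experiments 1 and 3 overlapped widely (0.029, SE 0.09), while every array of experiment 2 was lower (-1.002, SE 0.09). Plk1, which acts from centrosome maturation to cytokinesis, was 1233 to 1531 (median 1356), 477 to 696 (median 633) and 1508 to 1878 (median 1717). Its differences were -1.16 in experiment 2 against 1 and 1.47 in experiment 3 against 2.

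The remaining genes of this role fell between these cases. Melk, a kinase of the mitotic programme, was -1.495 in experiment 2 and -0.50 in experiment 3 relative to experiment 1. Bub1b, the BubR1 subunit of the checkpoint complex, was -1.17 and -0.15, the second not called (adjusted p = 0.13). Aurka, the kinase of the spindle poles, was -1.27 and -0.23 (adjusted p = 0.0396), and the second call was lost under 8 other settings.

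Genes of the chromosomal passenger complex and the centromere showed the same low point in experiment 2. Birc5, which encodes survivin, a passenger subunit, had signals of 4949 to 5859 (median 5298), 1590.4 to 2198 (median 1804) and 4536 to 6512 (median 6080.2). Experiment 2 was below all other arrays (-1.55, SE 0.08, adjusted p = 2.23e-10), and experiments 1 and 3 overlapped (0.091, SE 0.08, adjusted p = 0.4). Cdca8, the passenger subunit borealin, varied least in this role, at 3598 to 4032 (median 3806), 1713 to 1961 (median 1801) and 3621 to 4577 (median 4091). Cenpa, the centromeric histone, gave -1.34 and 0.14 relative to experiment 1, and the second passed the threshold only when arrays at 20 min were left out (0.27, adjusted p = 0.00734, without all 6, and 0.22, adjusted p = 0.0258, without the 2 LPS arrays that stood apart). Cenpe, the kinetochore motor, was the 1 gene of this role called lower in experiment 3 than in 1 (-0.80, SE 0.08, adjusted p = 2.40e-07). Another probe set of Cenpe gave 0.35 and was not called (adjusted p = 0.269).

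The 6 spindle and cytokinesis genes were all called lower in experiment 2 than in 1, from -1.71 to -1.22, and higher in experiment 3 than in 2, from 0.78 to 1.68. By brightest probe sets, Kif20a, a kinesin of the late spindle, had the widest spread, at 1142 to 1341 (median 1239), 302 to 435 (median 364) and 939.9 to 1248 (median 1121). Kif11, the kinesin that pushes the spindle poles apart, had the narrowest, at 1035 to 1403 (median 1296), 477 to 576 (median 533) and 665 to 1137 (median 985.0), with differences from experiment 1 of -1.22 and -0.44 (adjusted p = 0.00139). In both genes, by these probe sets, experiment 2 stood below all arrays of the other experiments. The narrow spread of Kif11 did not hold for its other tested probe sets. These gave -2.64 and -1.40 in experiment 2 and -1.96 and -0.50 in experiment 3, all called lower than in experiment 1. Hmmr, a spindle-associated hyaluronan receptor, was, by brightest probe sets, the only gene of this role in which every array of experiment 3 exceeded every array of experiment 1, at 2069.6 to 2770.4 (median 2227) against 1729 to 1990.2 (median 1837). This held for its brightest probe set, while the other 4 gave 0.11, 0.023, -0.18 and -1.01, the last called lower. Tpx2, the spindle factor that activates Aurora A, was lower than in experiment 1 in both later experiments by its brightest probe set (-1.46 and -0.68). The other tested probe sets of Tpx2 gave -1.29, 0.066 and 0.23 in experiment 2, only the first called. In experiment 3 they gave -0.18, 0.44 and 0.66, only the last called, as higher. Nusap1 and Prc1, which bundle spindle microtubules, were not called between experiments 3 and 1 (0.037 and 0.11).

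The anaphase-promoting complex is the ubiquitin ligase that ends mitosis, and its activator Cdc20 gave the largest rise in experiment 3 over experiment 1 among the brightest probe sets of the members. Its signal was 3872 to 5114 (median 4214) in experiment 1, 1612 to 2067 (median 1748) in experiment 2 and 5874 to 7178 (median 6110.2) in experiment 3. The 3 ranges were separate, with experiment 3 highest (0.55, SE 0.09, adjusted p = 4.26e-05) and experiment 2 lowest (-1.26, SE 0.09, adjusted p = 3.58e-09). The rise in experiment 3 over 1 was not called by the other 2 probe sets of the gene, which gave 0.055 (SE 0.08, adjusted p = 0.607) and 0.37 (SE 0.22, adjusted p = 0.188). Ube2c, the ubiquitin-conjugating enzyme of the complex, was 6736 to 7806 (median 7247), 1643 to 2656 (median 2225) and 5752 to 8075 (median 7596), with experiments 1 and 3 overlapping (-0.017, SE 0.10) and experiment 2 below both (-1.75, SE 0.10).

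Mki67, the gene of the Ki-67 protein used to count cycling cells, had signals of 7130.5 to 8125 (median 7879.8), 2456 to 3398 (median 2710.2) and 5329 to 6628 (median 6154). The ranges were separate, and the differences from experiment 1 were -1.49 (SE 0.07, adjusted p = 3.82e-11) and -0.37 (SE 0.07, adjusted p = 3.75e-04). Top2a, the topoisomerase that untangles replicated chromosomes, followed the same order, at 7508 to 8855 (median 7874), 2995 to 3309.8 (median 3232) and 5888 to 6417 (median 5961), with differences of -1.32 and -0.40.

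Of the 44 other tested probe sets of these genes, 40 had the sign of the brightest in experiment 2 against 1, 33 in experiment 3 against 1 and 40 in experiment 3 against 2, called or not. In experiment 2 against 1, 34 of them were called, all lower, as were the brightest probe sets of their genes. In experiment 3 against 1, 24 were called and 22 had the sign of the brightest, the exceptions being 1 probe set of Tpx2 (0.66, adjusted p = 0.00186) and 1 of Hmmr (-1.01, adjusted p = 4.74e-04). In experiment 3 against 2, 33 were called, and 31 of these belonged to genes whose brightest probe set was called, all with its sign. The other two were those of Mcm5, given above, and Ccne1 (-0.53, adjusted p = 0.00139), both lower in experiment 3 like most replication members.

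The promoter windows of members that moved apart are shown because they carry different sequence elements. Windows of 250 bases before to 50 bases after the gene start were taken from RefSeq (GRCm38.p6), written in the direction of the gene, and 31 of the 37 members had one. Searches on both strands covered the CCAAT box bound by the factor NF-Y (CCAAT), the CHR element (TTTGAA), and a strict E2F site (TTTCCCGC, TTTGGCGC, TTTGCCGC or TTTCGCGC). Capitals in the sequences mark a match on either strand. The genes shown were chosen after their values were seen. Ccnb2 (chr9:70421505-70421804, minus strand) and Cdc20 (chr4:118437294-118437593, minus strand) had the largest differences between experiments 3 and 2. Mcm3 (chr1:20820263-20820562, minus strand) and Mcm6 (chr1:128359656-128359955, minus strand) were 2 of the 3 helicase genes with the largest drop between experiments 2 and 3. The helicase gene with the largest such drop, Mcm2 (-1.22), is not shown. The Mcm2 window held a CHR element and no strict E2F match, so the windows shown do not stand for all members.
Ccnb2: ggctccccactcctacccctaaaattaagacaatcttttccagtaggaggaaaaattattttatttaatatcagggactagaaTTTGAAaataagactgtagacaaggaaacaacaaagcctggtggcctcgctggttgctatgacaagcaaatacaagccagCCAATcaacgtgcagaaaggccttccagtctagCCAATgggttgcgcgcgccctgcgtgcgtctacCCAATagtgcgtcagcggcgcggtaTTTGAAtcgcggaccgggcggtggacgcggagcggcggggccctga
Cdc20: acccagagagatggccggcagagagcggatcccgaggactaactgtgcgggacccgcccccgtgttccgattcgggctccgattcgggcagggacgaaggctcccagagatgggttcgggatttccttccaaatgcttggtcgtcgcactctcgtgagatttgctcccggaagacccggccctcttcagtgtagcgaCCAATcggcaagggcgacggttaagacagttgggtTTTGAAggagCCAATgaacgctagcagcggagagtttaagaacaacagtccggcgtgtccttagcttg
Mcm3: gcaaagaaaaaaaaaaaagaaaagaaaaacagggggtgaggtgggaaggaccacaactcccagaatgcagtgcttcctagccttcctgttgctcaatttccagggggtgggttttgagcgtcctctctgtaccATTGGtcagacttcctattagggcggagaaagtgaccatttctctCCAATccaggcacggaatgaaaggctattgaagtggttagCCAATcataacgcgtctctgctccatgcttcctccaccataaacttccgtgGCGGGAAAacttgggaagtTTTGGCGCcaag
Mcm6: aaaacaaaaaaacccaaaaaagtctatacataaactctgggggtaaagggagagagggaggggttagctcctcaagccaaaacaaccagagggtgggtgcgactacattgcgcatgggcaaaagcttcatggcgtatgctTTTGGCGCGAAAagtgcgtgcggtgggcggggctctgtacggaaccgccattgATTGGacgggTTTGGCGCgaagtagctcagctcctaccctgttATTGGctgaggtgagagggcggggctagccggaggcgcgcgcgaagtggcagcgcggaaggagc

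The CHR element was present in the windows of 14 of 19 mitosis members (73.7%) and in 1 of 12 replication and G1/S members (8.33%, Mcm2), against 14.4% of the 10130 tested genes with a window and 20.2% of the 27025 genes of the table. Ccnb2, Cdk1, Mki67 and Top2a each held 2 such matches. The CCAAT box was found in 84.2% of mitosis members and 66.7% of replication members, against 42.6% of tested genes. All 14 mitosis members with a CHR element also held a CCAAT box, a pairing found in 5.71% of tested genes. The strict E2F site was found in 4 of 12 replication and G1/S members (33.3%: Mcm3, Mcm5, Mcm6 and Mcm7) and in 1 of 19 mitosis members (5.26%, Cdk1), against 4.51% of tested genes. By brightest probe sets, Mcm2 had the largest drop of the helicase genes in experiment 3. Its window held a CHR element and a CCAAT box but no strict E2F match. A match describes the letters in the window only, and binding was not measured. Birc5, Melk and Nusap1 held no match to any of the motifs, and their differences in experiment 2 (-1.55, -1.495 and -1.42) lay within the range of the other mitosis members.

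**Figure D4:**
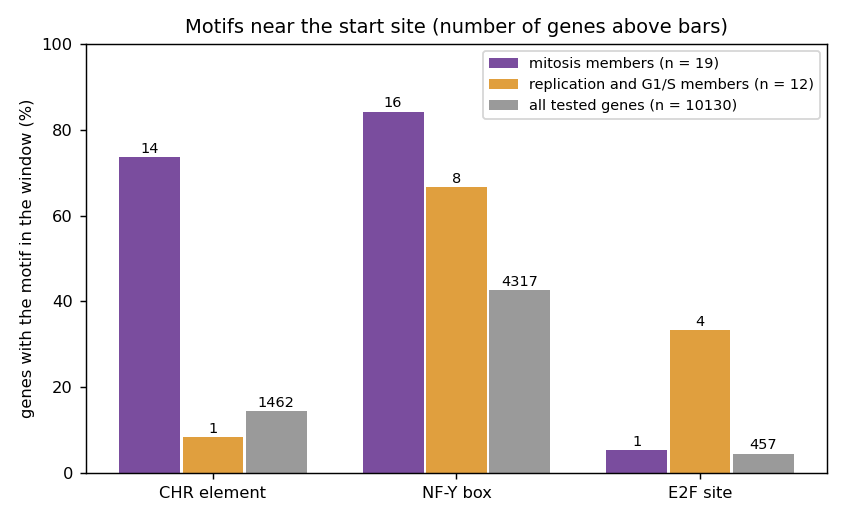
Bars give the percentage of genes whose promoter window holds each motif, for 19 mitosis members, 12 replication and G1/S members and 10130 tested genes, with the number of genes above each bar; NF-Y box stands for the CCAAT box. The CHR element is at 73.7% in mitosis members and 8.33% in replication members, and the E2F site at 5.26% and 33.3%.

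Treatment and time were then compared across the same arrays, the question being whether IL-10 or the first 30 min of LPS changed these genes. No member was called in any of the 10 comparisons, and no other probe set of a member was. For IL-10 plus LPS against LPS this held at 10 min, where 0% of all tested genes were called, at 20 min (0.016%), at 30 min (0.016%) and for the average over the times (0.016%). For LPS alone it held at 20 against 10 min (0% of all tested genes) and at 30 against 10 min (0.0399%). For LPS plus IL-10 it held at 20 against 10 min (0.016%) and at 30 against 10 min (0.0479%), and for how the IL-10 effect changed between 10 and 20 min (0%) and between 10 and 30 min (0.00798%). These shares are small, so a count of 0 among 37 members does not set them apart from other genes. No member had an unadjusted p below 0.05 in any of the 10 comparisons in this fit. The spread between experiments enters the error of this fit and made such a p unlikely. This result therefore says little about whether small effects were present.

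Because the experiments differed so strongly, the same comparisons were made with the experiment as a block, which removes that spread. The median SE of a member for IL-10 at 1 time was 0.53 without the block and 0.12 with it. Again no member was called in any comparison. With the block, the shares of all tested genes called were 0%, 0.016%, 0.0399% and 0.0239% for IL-10 at 10, 20 and 30 min and on average, 0.0239% and 0.168% for LPS at 20 and 30 against 10 min, 0.0479% and 0.255% for LPS plus IL-10 at these times, and 0.00798% and 0.016% for the changes of the IL-10 effect. The numbers of members at an unadjusted p below 0.05 were 2, 0, 0, 1, 2, 0, 1, 0, 3 and 0 in the same order. The smallest adjusted p of a member was 0.477, for Ccne2 in LPS at 20 against 10 min.

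The sizes were small beside the differences between experiments. The IL-10 effect on single members lay between -0.36 and 0.27 at 10 min, between -0.35 and 0.23 at 20 min and between -0.24 and 0.20 at 30 min, with medians of 0.051, -0.0092 and 0.022. Between 10 and 30 min members moved by -0.14 to 0.16 with LPS and by -0.17 to 0.18 with LPS plus IL-10. With the block, the 95% intervals of all 37 members for IL-10 averaged over the times lay within -0.48 and 0.38, so a change of a full log2 unit was outside every one of them. The mean of log2(signal + 16) over all 37 members ranged only from 10.940 to 10.998 across the 6 groups. Within the 9 pairs of arrays of the same experiment and time, LPS plus IL-10 minus LPS was -0.045 to 0.13 with a median of 0.0048, and it was above 0 in 5 of the 9.

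Ccne2 and Melk were the members with the smallest unadjusted p-values in the blocked fit. At 10 min the Ccne2 signal was 1803, 823 and 602 with LPS and 1469, 636 and 443 with LPS plus IL-10 in experiments 1, 2 and 3. It was lower with IL-10 in every experiment. The blocked difference was -0.36 (SE 0.13, adjusted p = 1.00). Melk at 10 min was 1408, 560.5 and 979.8 with LPS and 1262, 439 and 823 with LPS plus IL-10 in the same order. It too was lower in every pair at 10 min, but higher in every pair at 20 min. The difference at 10 min was -0.25 (SE 0.11, adjusted p = 1.00), and between these times the IL-10 effect changed by 0.48 (SE 0.16, adjusted p = 0.646). None of these differences was called.

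**Figure D5:**
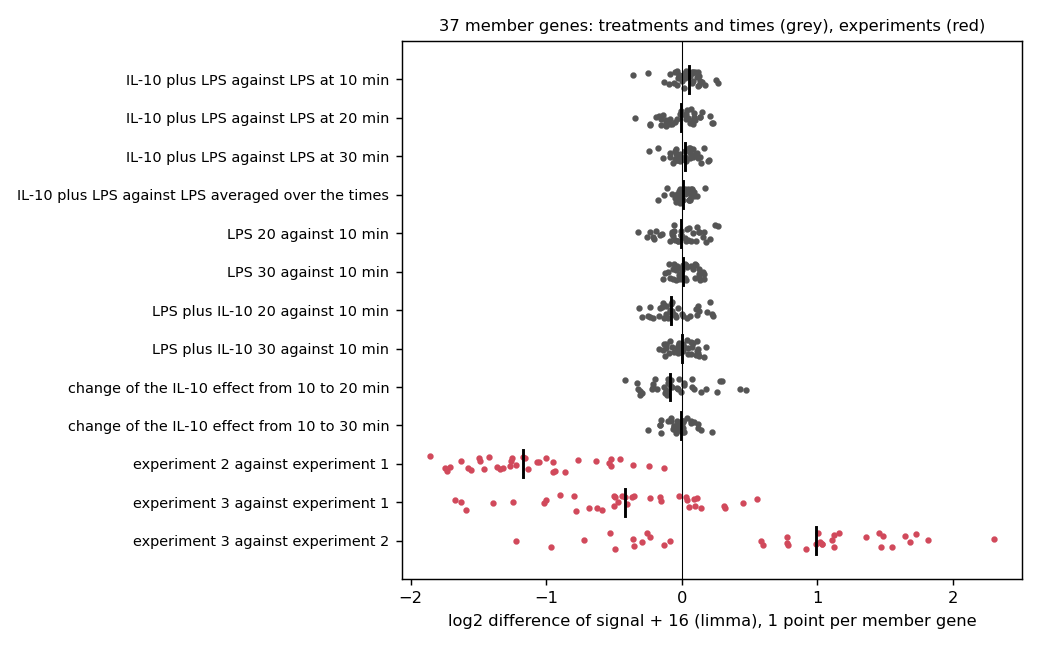
Each point is 1 of the 37 member genes and the horizontal axis its log2 difference of signal + 16 in limma; the upper 10 rows in grey are comparisons of treatments and times and the lower 3 rows in red comparisons of experiments, with a black bar at each median. The grey points stay between -0.42 and 0.48, while the red points reach from -1.86 to 2.31.

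Of the variance of a member over the 18 arrays, a median of 95.8% lay between experiments (from 57.1% in Pcna to 98.7% in Mcm2), 1.57% between the 6 treatment and time groups, and 2.38% in the rest. Over all tested genes the medians were 42.7%, 16.96% and 33.2%. Pcna, E2f1, Ccne1 and Tyms had the lowest shares among the members.

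Genes of the same processes outside the list were counted next. Of 49 other G2 and mitosis genes, 47 were called lower and 1 higher in experiment 2 than in 1, and 44 were called higher and none lower in experiment 3 than in 2. Ncapg, a condensin subunit, gave -1.65 in experiment 2. Cenpf, a kinetochore protein, went from 1128 to 1360.1 (median 1191) in experiment 1 to 337 to 424 (median 367) and 894 to 1183 (median 1063) in experiments 2 and 3 (-1.66 and 1.47 for the 2 steps), and Cdca3, a mitotic entry factor, rose by 1.58 between experiments 2 and 3. The exception was Pttg1, the gene of securin, which was 0.20 in experiment 2 (adjusted p = 0.0474) and 0.50 in experiment 3 relative to experiment 1. In experiment 3 against 1, 4 of the 49 were called higher, led by Pttg1 and the kinesin gene Kif22 (0.50), and 26 lower, led by Mybl2 (-0.86) and Racgap1 (-0.85). The all-gene shares for these comparisons are those given above.

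Of 29 other replication and repair genes, 25 were called lower and none higher in experiment 2 than in 1, and 23 lower and none higher in experiment 3 than in 1. Cdt1, which loads the helicase onto DNA, had signals of 8272 to 9449.8 (median 8561), 5998 to 7465 (median 6732) and 2210.0 to 2885 (median 2504). The ranges were separate and experiment 3 was lowest (-1.79, SE 0.07, adjusted p = 2.45e-12). Uhrf1, which maintains DNA methylation at replication, gave -1.69 in experiment 3, and Pola1, the catalytic subunit of the primase-associated polymerase, gave -1.04 in experiment 2. Cdc6, another helicase loader, had signals of 697 to 908 (median 780.5), 337 to 406 (median 392) and 247 to 365 (median 314), with both later experiments below all arrays of experiment 1. Between experiments 3 and 2 the list had 8 lower, led by Cdt1 (-1.42) and the histone chaperone gene Chaf1b (-0.82), and 4 higher, led by the thymidine kinase gene Tk1 (0.72) and the flap nuclease gene Fen1 (0.46).

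Among 17 G1/S regulators outside the members, 10, 11 and 6 were called lower and 1, 1 and 3 higher in experiments 2 against 1, 3 against 1 and 3 against 2. Ccnd1, the cyclin D gene that responds to growth factors, fell most, from 8982 to 10505 (median 9800.4) in experiment 1 through 3910.0 to 5750.0 (median 4964) in experiment 2 to 1856 to 2519.9 (median 2021) in experiment 3. The ranges did not overlap, and the differences from experiment 1 were -1.02 (SE 0.08) and -2.23 (SE 0.08, adjusted p = 6.28e-13). E2f2, an activator E2F, was -1.13 in experiment 2, E2f8, an atypical repressor E2F, was -1.24 in experiment 3, and Ccnd2 was -0.66 in experiment 3 against 2. Rb1, whose protein restrains E2F, was called higher in both later experiments (0.23 and 0.30), and Cdc25a and Ccnd3 were called higher in experiment 3 than in 2 (0.58 and 0.31).

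Of 11 inhibitors of cyclin-dependent kinases and antiproliferative genes, 3 were called higher and 3 lower in experiment 2 than in 1. In experiment 3 against 1, 7 were higher and 1 lower, and in experiment 3 against 2, 5 were higher and 1 lower. Over all tested genes, 23.9%, 26.9% and 12.9% were called higher and 14.8%, 20.3% and 15.6% lower in the same order. The 3 of 11 called higher in experiment 2 were close to the share of all genes. Cdkn1a, which encodes the inhibitor p21, was 4997 to 6162 (median 5214), 11374 to 12737 (median 12032) and 6668 to 9181 (median 7046). It was highest in experiment 2, where the mitosis genes were lowest, without overlap (1.17, SE 0.08, adjusted p = 2.06e-09). Cdkn1b, which encodes p27, was highest in experiment 3 (0.70, SE 0.12), and Cdkn2d was 1.01 in experiment 3 against 2. Cdkn1c and Cdkn2c, inhibitor genes of the same families, were lower in experiment 2 (-1.59 and -0.74), and Ccng2 was slightly higher there (0.27).

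Markers of cell types moved between the experiments as well, and their part in the differences of the cell cycle genes was not tested. The all-gene shares just given apply to the counts of markers too. With so few markers of a cell type, counts near those shares do not set them apart from other genes. Of 8 granulocyte markers 7 were called higher in experiment 2 than in 1 and 7 lower in experiment 3 than in 2, and the summed signal of 9 granulocyte markers with a probe set was 7772 to 9340 in experiment 1, 14050 to 16083 in experiment 2 and 7477 to 10915 in experiment 3. Lcn2 led them in experiment 2 (1.89), and Mmp9 was higher in both later experiments (1.497 and 1.52). Mmp8 and S100a9 were called lower in experiment 3 than in 1 (-1.06 and -0.52), and S100a9 and S100a8 led the markers lower in experiment 3 than in 2 (-1.04 and -0.93). Of 9 macrophage markers 4 were called higher and none lower in experiment 2, and 4 higher and 1 lower in experiment 3, relative to experiment 1, with sums of 113426 to 146259, 134354 to 167327 and 128699 to 201486. Adgre1, which encodes F4/80, was 1.14 in experiment 3, Mertk 1.103 in experiment 2, and Fcgr1 1.04 in experiment 2 and -0.39 in experiment 3. Cd14 and Adgre1 were called higher in experiment 3 than in 2 (0.31 and 0.26).

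Myeloid progenitor markers were dim, with sums of 1317 to 1789, 997 to 1291 and 842 to 1371 over 10 genes, and of the 8 tested 3 were called lower in each later experiment than in experiment 1. Kit, the stem cell factor receptor of progenitors, had median signals of 108, 40.9 and 31.7, and Cd34 was below the array median on all 18 arrays. Mpo was -0.93 in experiment 2 and Prtn3 -0.57 in experiment 3, while Gata2 was the 1 marker called higher in experiment 2 (0.80) and lower in experiment 3 than in 2 (-0.81). Of 7 stromal markers, with Pdgfra given by a probe set other than its brightest, which did not pass the filter on low signal, 5 were called higher in each later experiment than in 1, led by Dcn (1.88) and Sparc (1.12) in experiment 2, with summed signals over all 8 stromal markers of 2207 to 3093, 3556 to 5360 and 3164 to 4022. Of 4 tested lymphocyte markers Ighm moved most, at 958 to 1266 (median 1062), 59.9 to 124 (median 94.2) and 557 to 915 (median 695). Its low in experiment 2 (-3.35, SE 0.13) was without overlap, while Cd8a was called higher in both later experiments (1.01 and 1.04) and Cd3d, Cd3g and Cd4 were below the array median on all arrays. Of 4 dendritic cell markers Itgax was called higher in experiment 2 (1.35) and Zbtb46 in experiment 3 (1.01) than in experiment 1, and none of 3 erythroid markers was called in any of these comparisons.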

How the data were processed

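Total RNA of 18 macrophage samples was hybridised to 18 single-colour Affymetrix arrays, in 6 groups of 3. The deposited table holds linear signal intensities, which the authors made with GCOS 1.4 according to the submitters' processing notes; which signal algorithm was used is not stated there. No detection calls were used, and the number of arrays limits the precision.

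Of 45037 probe sets other than controls, those at or above the array median on at least 3 arrays were tested (27110). On log2(signal + 16), limma 3.58.1 in R 4.3.3 (lmFit, eBayes with intensity trend, two-sided, Benjamini-Hochberg over all tested probe sets, threshold 0.05) was fitted with 1 coefficient per group for treatments and times (12 residual degrees of freedom), and with the experiment added for the comparisons of experiments and as the replicate block (10 degrees of freedom). The script was tested on simulated data. Replicate numbers pair the samples because the labels make each number an experiment; array deviations about their group means had correlations of 0.20 to 0.64 within a number (45 pairs) and -0.47 to 0.0651 between numbers (90 pairs). No source used here gives scan or hybridisation batches, so an array batch that coincided with an experiment cannot be told apart from it.

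The members and lists were chosen with earlier results of these data known. Members were split by known function, and named genes are all members, with full values for those with the largest and smallest differences in a role, and the 2 genes with the largest called difference in each direction of the other lists. Probe sets with several symbols or none were left out, a few further values being named after they were seen. Alternatives were pseudocounts of 1 and 64, quantile normalisation, a filter at the 75th percentile or none, no intensity trend, no group term, and leaving out experiments, time points or the 2 arrays that stood apart.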

Additional observations from a re-analysis of the deposited data

Results flagged for a closer look

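Within an experiment, the values of each member (111 sets of 6 arrays) and the means over members (9 sets) were examined for 1 array lying far from the other 5. Of these 120 sets, 3 held such a value, 2.5%, where the limit used (the 95% critical value of Dixon's test) lets chance give about 1 in 20. In experiment 1 the E2f1 signal was 882 on the LPS array at 30 min, against 1092 to 1164 on the other arrays. In experiment 2 the Top2a signal was 2995 on the LPS array at 30 min, against 3204 to 3309.8 on the others. In experiment 2 the Mki67 signal was 3398 on the LPS plus IL-10 array at 10 min, against 2456 to 2753 on the others. This search looks for 1 array and can miss 2 that lie apart together. In experiment 3 the 2 arrays at 20 min did so in some members. Prc1 was 2865 and 2802 there, against 1790.5 to 1897 on the others, and Ube2c was 5752 and 6202, against 7573 to 8075. The low share of flagged sets therefore does not show that the arrays of an experiment were alike.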

How the results depend on the processing

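Calls between experiments were kept with few exceptions under quantile normalisation, pseudocounts of 1 and 64, other filters, no intensity trend, no group term, without an experiment, without 1 time point and without the 2 LPS arrays that stood apart. No member changed direction under the settings that kept all arrays. The number of members lower in experiment 3 than in 2 was 9, and 5 without the arrays at 10 min; over the other settings it was 7 to 9. Signs near 0 turned in experiment 3 against 1 for Ube2c (0.048 without the 2 LPS arrays that stood apart and 0.11 without the arrays at 20 min), Birc5 (-0.00289 without 10 min), Prc1 (-0.082 without 20 min), Nusap1 (-0.13 without 30 min) and Aurkb (-0.062 without 30 min), and in experiment 2 against 1 for Pcna (0.020 without 20 min); the cause was not tested. Averaged over all probe sets of the members, the mean difference was -0.90 for experiment 2 minus 1 (-1.11 with the brightest) and 0.49 for experiment 3 minus 2 (0.67 with the brightest). The replicate block changed no call of a member in any treatment or time comparison, with 0 called with it and 0 without it. The members' counts in these comparisons were 0 under every setting tried. Apart from the replicate block itself, these settings were fitted without the block. The spread between experiments then enters the error, so a call was unlikely and these counts say little about how firm the result is.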
